A study of Rattus norvegicus with 10 samples.

Results

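The glycolysis and hypoxia response genes are 40 genes of glucose use and oxygen response: 4 carriers of glucose and lactate, 8 genes of the upper and 7 of the lower steps of glycolysis, 2 lactate dehydrogenase subunits, 4 genes of the bifunctional enzymes that set the activator of phosphofructokinase, 4 pyruvate dehydrogenase kinases, 3 genes of oxygen sensing and 8 hypoxia response targets. They were followed through a time course of lens explants from 3-day-old rats, pieces of lens capsule carrying their epithelial cells. Every explant had first spent the night at 5 ng/mL FGF2, at the end of which 0 hr was taken. The others were then given 100 ng/mL FGF2, the concentration used to drive lens epithelial cells toward fiber cells, for 2, 4, 12, or 24 hr. The members were found by symbol in the annotation of the array, and each was measured by 1 probe set, the brightest of those to which its symbol alone is assigned. Of the 40 members 39 had such a probe set, among 14217 genes on the array, and 38 had one outside the array controls. Gapdh lay only on the control probe sets, and the probe set of Pkm, the pyruvate kinase gene, is annotated to a pseudogene as well, so no level of Pkm is given.

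The lens has no blood vessels of its own once it is mature and lies in a medium of low oxygen, and its fiber cells lose their mitochondria as they differentiate, so lens cells draw much of their ATP from glycolysis. Glucose enters through facilitative carriers, is phosphorylated and split by the upper enzymes of the pathway, and is turned into pyruvate by the lower ones. Pyruvate is reduced to lactate by lactate dehydrogenase or admitted to the mitochondria by the pyruvate dehydrogenase complex, which the pyruvate dehydrogenase kinases switch off. Many of these genes are known targets of hypoxia-inducible factor, whose alpha subunit is marked for destruction by prolyl hydroxylases when oxygen is present. Most steps of the pathway are served by several isozymes from separate genes.

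Each time point was measured on 2 arrays, 10 in all, made from 2 sets of RNA from different cultures, with 6 explants per dish. The values are intensities on a linear scale, with array medians between 98.0 and 100.3. Changes are given as log2 fold changes with the standard error (SE) of the limma fit, which is shared by all 4 times of a gene, and a gene counted as called where p, adjusted by Benjamini-Hochberg across the 31042 probe sets, was under 0.05. All 7 lens epithelium markers measured, Pax6, Foxe3 and Cdh1 among them, lay above the array median, as did 13 of the 14 lens fiber markers measured, whereas all 8 macrophage markers and all 8 retina and pigment cell markers measured lay below it. Of the vascular endothelium markers 3 of 7 measured lay below the median, and of the blood cell markers 2 of 3. No explants were kept at the low dose for the same hours, so that dose and time in culture cannot be told apart. Each array measured whole explants, so that fewer cells of a type and less RNA per cell cannot be told apart either. The numbers in the array names set the 2 and 4 hr arrays apart from all others, and the 0 hr arrays apart from the 12 and 24 hr arrays. In each comparison with 0 hr, time and array series therefore cannot be told apart. The log2 ratio of the 5-prime to the 3-prime GAPDH control probe set ran from −0.30 to −0.17 on the 2 and 4 hr arrays, against −0.14 to 0.00 on the others, and its part in the results was not tested. The same ratio of the beta-actin (Actb) controls lay between −1.21 and −1.12 at 0 hr, −2.13 and −1.68 at 2 hr, −2.08 and −1.37 at 4 hr, −1.43 and −1.30 at 12 hr, and −1.88 and −1.75 at 24 hr, so that all later arrays were below those of 0 hr. With the Actb ratio as a covariate of the fit the members called numbered 6, 15, 22, and 13 at the 4 times.

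The members changed most at 12 hr. At that time 13 of 38 members rose and 9 fell against 0 hr, or 34.2% and 23.7% of the members, against 8.94% and 10% of all probe sets tested. At 2 hr 4 members rose and 3 fell (10.5% and 7.89%, against 8.61% and 8.88% of all probe sets), shares near the background. At 4 hr 4 rose and 8 fell (10.5% and 21.1%, against 11.9% in either direction). At 24 hr 6 rose and 7 fell (15.8% and 18.4%, against 9.29% and 10.9%). The median log2 fold change of the members was 0.06 and −0.18 at 2 and 4 hr, and 0.25 and 0.17 at 12 and 24 hr, beside medians between −0.02 and 0.03 over all probe sets. The members are bright, with 36 of 38 in the brighter part of the probe sets, above the median. Of those brighter probe sets 12.7%, 17.9%, 13.9%, and 14% rose and 13.5%, 17.6%, 15.9%, and 16.9% fell at 2, 4, 12, and 24 hr. Beside these the members' shares were larger in both directions at 12 hr, near them at 24 hr, below them at 2 hr, and at 4 hr lower for rises and higher for falls. The members were chosen with earlier results of these data known, so the shares are descriptions and no test.

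**Figure D1:**
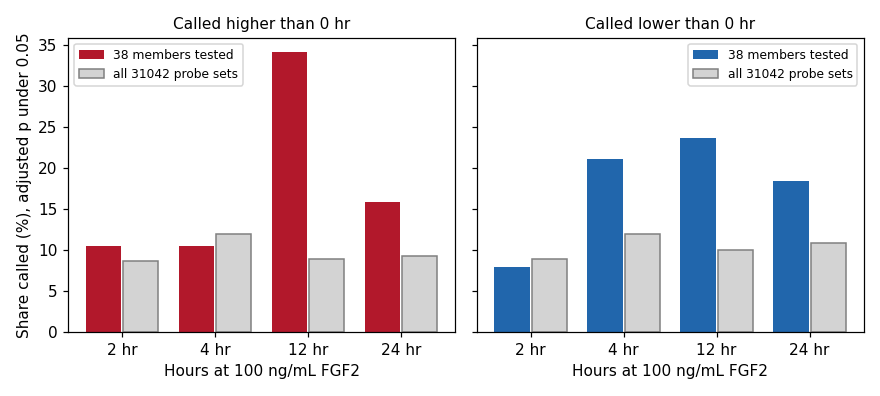
Share (%) of the 38 members tested (coloured bars) and of all 31042 probe sets (grey bars) called higher (left) and lower (right) than 0 hr at an adjusted p under 0.05, by hours at 100 ng/mL FGF2. The members' share of higher calls was 34.2% at 12 hr beside 8.94% of all probe sets, and 10.5% at 2 hr beside 8.61%.

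Across the 4 times 24 of the 38 members were called at least once and 14 at none. The share of all probe sets called at least once was not counted, so these counts describe the members alone. Slc16a1, Pfkm and Apln were called at all 4 times. Pfkfb3 alone was called higher at one time and lower at another. Of the members called at 12 hr, 6 were higher at 24 hr too (Pfkl, Pfkp, Aldoa, Ankrd37, Stc1 and Apln) and 7 were lower at both (Slc16a1, Pfkm, Aldoc, Ldhb, Pdk4, Hif1a and P4ha2). Slc2a1, Slc2a3, Hk1, Hk2, Pdk1, Pdk2 and Egln1 were called higher at 12 hr and not at 24 hr. The number of calls depended on single arrays. The 22 calls at 12 hr became 12 without the first 0 hr array, 14 without the second, and 12 without the second 12 hr array, and 11 of the 22 were kept under every alternative tried (Slc16a1, Pfkm, Pfkp, Aldoc, Ldhb, Pdk2, Pdk4, Hif1a, P4ha2, Stc1 and Apln). At 2 hr the 7 calls became 1, that of Slc2a3, without the first 0 hr array, 2 without the second, 3 without the first 2 hr array and 4 without either 12 hr array. At 4 hr the 12 calls became 7 without the second 0 hr array. An omission leaves 1 array at that time point.

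**Figure D2:**
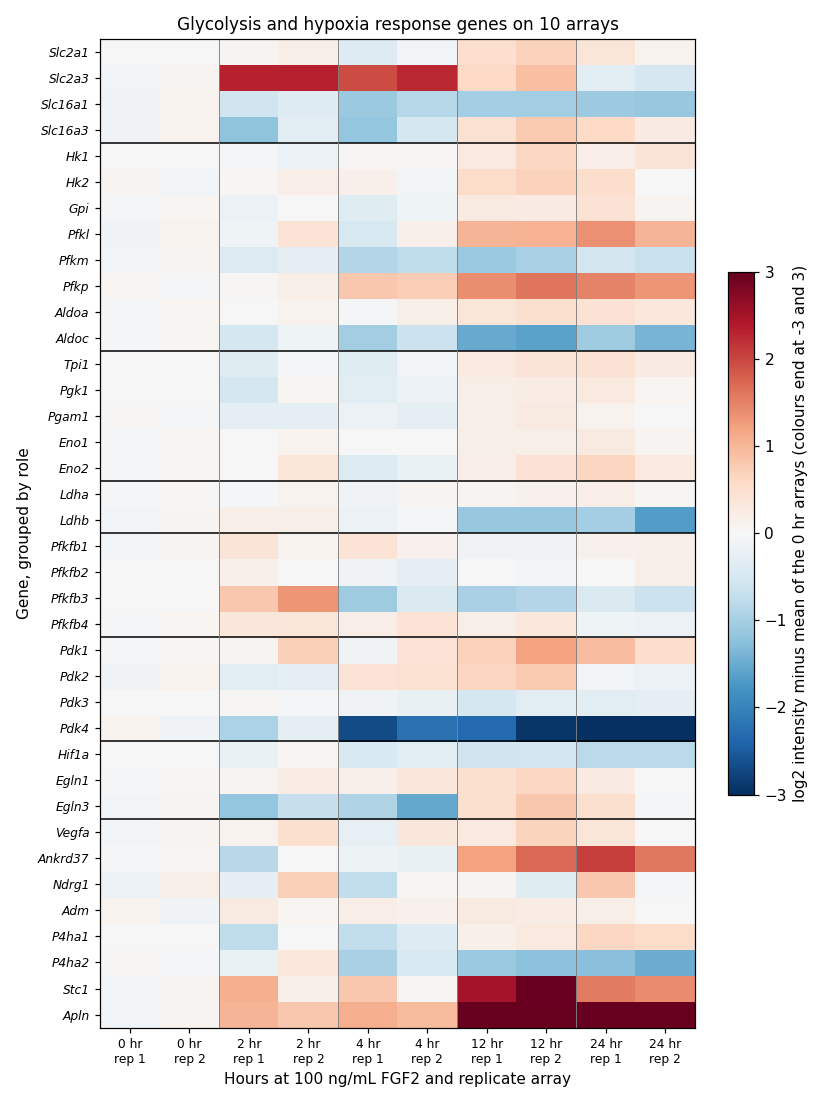
Log2 intensity of the 38 members on each of the 10 arrays, minus the gene's mean on the 0 hr arrays, with genes grouped by role and arrays in order of time. Slc2a3 is high on the 2 and 4 hr arrays, Stc1 and Apln on the 12 and 24 hr arrays, and Pdk4 is low on the 4, 12, and 24 hr arrays.

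The carriers of glucose and lactate took separate courses. Slc2a3, which encodes the high-affinity glucose carrier GLUT3, gave the largest early rise of the members. Its probe set (1372326_at) read 457 and 514 at 0 hr, 2417 and 2443 at 2 hr, 1884 and 2318 at 4 hr, 739 and 906 at 12 hr, and 381 and 343 at 24 hr. The 4 early arrays were higher than all others, the 12 hr arrays lay between, and both 24 hr arrays were below both 0 hr arrays. Slc2a3 rose 5.01-fold at 2 hr (log2 fold change 2.32, SE 0.14, adjusted p = 5.5e-05), stood at 2.11 at 4 hr (adjusted p = 3.7e-05) and at 0.75 at 12 hr (adjusted p = 0.0056), and was at −0.42 at 24 hr, where it was not called (adjusted p = 0.062). The call at 12 hr was lost without the first 0 hr or the second 12 hr array. From its neighbour time it differed at 24 against 12 hr, by −1.18 (adjusted p = 0.0039). A second, dimmer probe set was also called higher at 2 and 4 hr, at 1.08 and 0.83. Slc2a1, which encodes the widely expressed carrier GLUT1, rose by 0.59 at 12 hr (SE 0.13, adjusted p = 0.014), a call lost without either 0 hr array or the second 12 hr array, and was not called at the other times.

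Slc16a1, which encodes the lactate and pyruvate carrier MCT1, fell throughout. It read 3595 and 4112 at 0 hr, 2528 and 2963 at 2 hr, 1774 and 2110 at 4 hr, 1898 and 1876 at 12 hr, and 1814 and 1746 at 24 hr (1386981_at). All 8 later arrays were below both 0 hr arrays, and those of 12 and 24 hr each overlapped or lay within the range of the 4 hr arrays. The log2 fold changes were −0.49, −0.99, −1.03, and −1.11 (SE 0.12, adjusted p = 0.025, 0.00067, 0.0007 and 0.00047), and the call at 2 hr was lost without either 0 hr array or the first 2 hr array. A dim second probe set of Slc16a1 was called at no time against 0 hr. Slc16a3, which encodes the lactate exporter MCT4, was called at no time against 0 hr, with log2 fold changes between −0.85 and 0.62 (SE 0.30). With the Actb ratio as covariate, however, Slc16a3 was called lower at 2 and 4 hr, at −1.62 and −1.49.

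In the upper steps of glycolysis 5 of 8 genes rose and 2 fell at 12 hr (62.5% and 25%, against 8.94% and 10% of all probe sets and 13.9% and 15.9% of the brighter ones), and genes for one enzyme moved in opposite directions. Phosphofructokinase, the committing step of the pathway, is built from liver-type, muscle-type, and platelet-type subunits. Pfkp, the platelet-type gene, rose 2.83-fold at 12 hr. It read 812 and 753 at 0 hr, 802 and 890 at 2 hr, 1380 and 1315 at 4 hr, 2059 and 2373 at 12 hr, and 2201 and 1946 at 24 hr (1372182_at). The 4 hr arrays were above all 0 and 2 hr arrays, and the 12 and 24 hr arrays above those. Its log2 fold changes were 0.11, 0.78, 1.50, and 1.40 (SE 0.11), and the last 3 were called (adjusted p = 0.0013, 8.9e-05 and 0.0001). Pfkl, the liver-type gene, read 359 and 420 at 0 hr, 356 and 514 at 2 hr, 277 and 431 at 4 hr, 785 and 800 at 12 hr, and 998 and 787 at 24 hr (1367743_at). Its arrays overlapped up to 4 hr, and all 4 late arrays were higher than the others. Pfkl rose by 1.03 at 12 hr and 1.19 at 24 hr (SE 0.23, adjusted p = 0.016 and 0.0079), and the 12 hr call was lost without any one of the 0 or 12 hr arrays, the 24 hr call without the first 0 hr or the first 24 hr array and with the Actb ratio as covariate, at 0.61.

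Pfkm, the muscle-type gene, fell. It read 287 and 323 at 0 hr, 230 and 247 at 2 hr, 164 and 178 at 4 hr, 140 and 156 at 12 hr, and 208 and 192 at 24 hr (1367864_at). No later array reached the 0 hr arrays, and the 24 hr arrays lay above those of 4 and 12 hr. The log2 fold changes were −0.35, −0.83, −1.04, and −0.61 (SE 0.10), all called (adjusted p = 0.049, 0.00077, 0.00033 and 0.0043), and the call at 2 hr was lost without any one array other than those of 4 hr. A second probe set of Pfkm was also called lower at 4 and 12 hr, at −0.69 and −0.70, but not at 24 hr, at −0.42. The third and dimmest one was called higher at 12 and 24 hr, at 0.34 each. The direction of Pfkm therefore rests on its brighter probe sets, and its 24 hr call was lost in the mean of all its probe sets. The log2 ratio of Pfkp over Pfkm thus stood 2.54 higher at 12 hr than at 0 hr, and that of Pfkl over Pfkm 2.07 higher. These ratios are descriptions, since a difference between 2 genes was not tested.

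The aldolases, which split the phosphorylated hexose, parted in the same manner. Aldoc, the brain-type gene, read 3852 and 4129 at 0 hr, 2785 and 3631 at 2 hr, 1932 and 2546 at 4 hr, 1404 and 1317 at 12 hr, and 1896 and 1508 at 24 hr (1386998_at). All later arrays lay below both 0 hr arrays, with the lowest at 12 hr. Aldoc stood at −0.33, −0.85, −1.55, and −1.24 (SE 0.17), with the last 3 called (adjusted p = 0.0084, 0.00057 and 0.0016), and its 4 hr call was lost without the second 0 hr array. Aldoa, the widely expressed gene, rose by 0.43 at 12 hr and 0.38 at 24 hr (SE 0.11, adjusted p = 0.023 and 0.034), calls that were each lost without any one of the 0 hr arrays or of the arrays of that time, the 24 hr call without either 12 hr array and with the Actb ratio as covariate as well. The log2 ratio of Aldoa over Aldoc was 1.98 higher at 12 hr and 1.62 higher at 24 hr than at 0 hr. Hk1 and Hk2, the hexokinase genes, were called higher at 12 hr and at no other time, by 0.46 (SE 0.12, adjusted p = 0.029) and 0.63 (SE 0.17, adjusted p = 0.03), and both calls were lost without either 0 hr array or the second 12 hr array, that of Hk2 without the first 12 hr array as well. The Hk1 call was also lost in the mean of its probe sets, the dimmer of which was called at no time. Of the 3 array controls of hexokinase, annotated to Hk1, the 3-prime one was called higher at 12 and 24 hr, at 0.56 and 0.40 (SE 0.12, adjusted p = 0.012 and 0.049), and the others at no time. Gpi, which encodes the hexose phosphate isomerase, was called at no time, with log2 fold changes between −0.25 and 0.25.

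**Figure D3:**
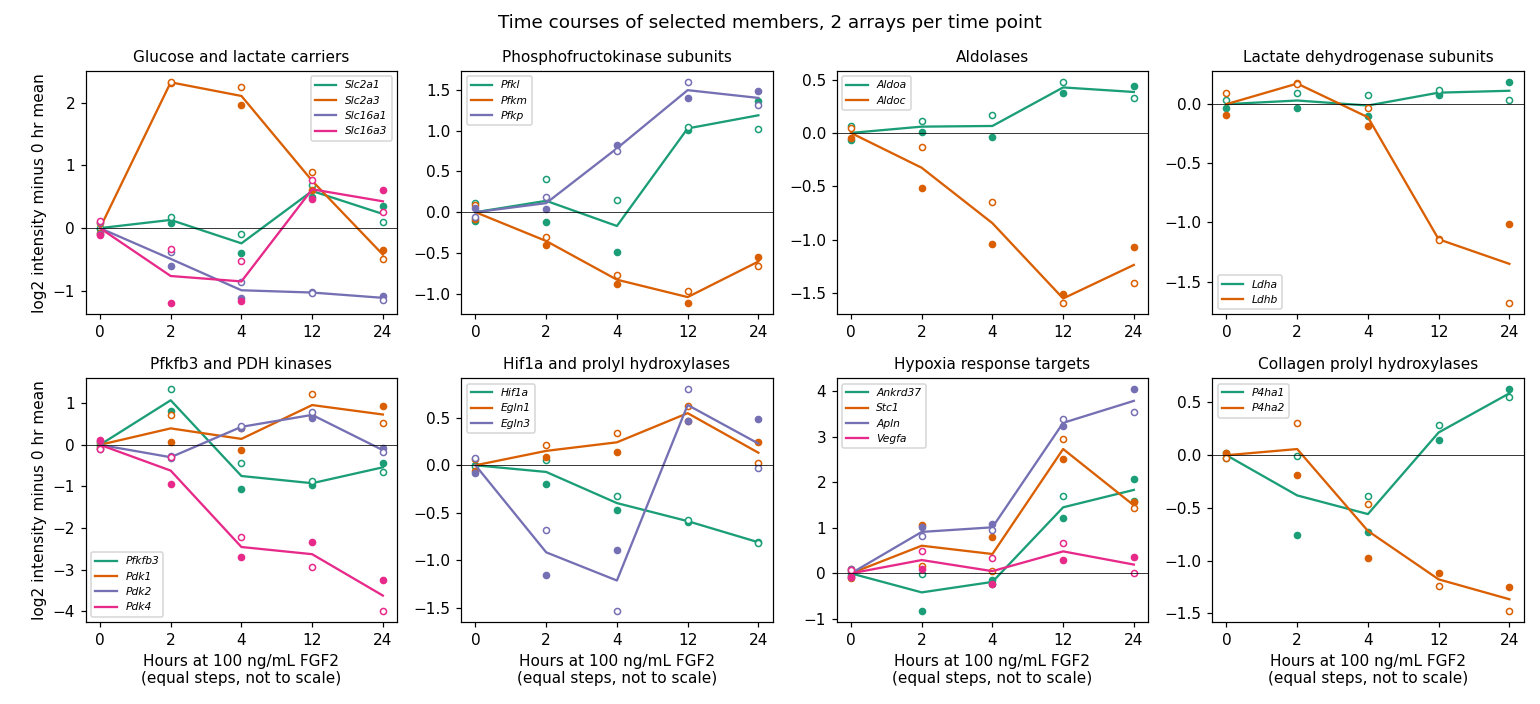
Time courses of selected members as log2 intensity minus the mean of the 0 hr arrays, against hours at 100 ng/mL FGF2 drawn in equal steps. Filled circles are replicate 1, open circles replicate 2 and lines join the means. Pfkp and Pfkl end above 0 hr and Pfkm below it, as do Aldoa and Aldoc and, in the last panel, P4ha1 and P4ha2, although Aldoa changed by less than 0.5 and P4ha1 was not called against 0 hr.

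The lower steps of glycolysis stayed within 0.47 of 0 hr on the log2 scale in the genes tested. That largest value, of Eno2 at 24 hr, was above the 0.38 at which Aldoa was called. Of the 5 genes tested (Tpi1, Pgk1, Pgam1, Eno1 and Eno2) none was called against 0 hr by limma at any of the 4 times, and their log2 fold changes lay between −0.28 and 0.17 at 2 hr, −0.30 and 0.01 at 4 hr, 0.17 and 0.33 at 12 hr, and 0.06 and 0.47 at 24 hr. All 5 values were positive at 12 and 24 hr. At an unadjusted p under 0.05, 1, 1, 2, and 2 of the 5 passed at 2, 4, 12, and 24 hr. By an unadjusted analysis of variance, the kind of test named in the methods, 1, 0, 2, and 0 passed. It was run here on the arrays of each comparison alone, without moderated variances, and need not match the authors' fit. Pgam1 was called at 2, 4, and 12 hr with a trended variance prior. Gapdh, which encodes the glyceraldehyde phosphate dehydrogenase of these steps and is often used as a standard of even expression, was read from the 3-prime array control. It gave 9926 and 10236 at 0 hr, 9959 and 10986 at 2 hr, 9340 and 10147 at 4 hr, 9924 and 10204 at 12 hr, and 10579 and 10324 at 24 hr, so that both 24 hr arrays read above those of 0, 4, and 12 hr and within the range of the 2 hr arrays. Fitted together with the other array controls, it stood between −0.05 and 0.05 (SE 0.09, adjusted p between 0.74 and 0.99). The middle control of GAPDH stood between −0.16 and −0.05 and was called at no time, and the 5-prime control stood at −0.16, −0.26, −0.06, and −0.05 and was called lower at 4 hr (SE 0.08, adjusted p = 0.0496).

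Ldhb and Ldha, which encode the heart-type and muscle-type subunits of lactate dehydrogenase, differed in course. Ldhb read 818 and 927 at 0 hr, 987 and 978 at 2 hr, 766 and 850 at 4 hr, 395 and 394 at 12 hr, and 431 and 271 at 24 hr (1370218_at). The 4 late arrays lay below all others, and the 24 hr arrays were wide apart. Ldhb fell by 1.14 at 12 hr and by 1.35 at 24 hr on the log2 scale (SE 0.19, adjusted p = 0.0033 and 0.0014). Ldha was among the bright members and was called at no time, with log2 fold changes between −0.01 and 0.11 (SE 0.10). The log2 ratio of Ldha over Ldhb was 1.24 higher at 12 hr and 1.46 higher at 24 hr than at 0 hr.

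Among the bifunctional enzymes that make and remove the activator of phosphofructokinase, Pfkfb3 gave the largest changes. It read 1097 and 1067 at 0 hr, 1898 and 2724 at 2 hr, 519 and 798 at 4 hr, 554 and 588 at 12 hr, and 799 and 693 at 24 hr (1390391_at). The 2 hr arrays were above and all later arrays below the 0 hr arrays. Pfkfb3 rose by 1.07 at 2 hr (SE 0.22, adjusted p = 0.011), fell by 0.75 at 4 hr (adjusted p = 0.035) and by 0.92 at 12 hr (adjusted p = 0.017), and stood at −0.54 at 24 hr (adjusted p = 0.12). Each of these 3 calls was lost without either 0 hr array and without at least 1 array of its own time (the second of 2 hr, the first of 4 hr and either of 12 hr), and the 4 hr call without either 12 hr array as well. With the Actb ratio as covariate Pfkfb3 stood at 0.42 at 2 hr and was not called there, but was called lower at 24 hr, at −1.11. Its other 2 probe sets, both dimmer, were called at no time. Pfkfb4 rose by 0.35 at 2 hr (SE 0.10, adjusted p = 0.047). It lost this call without any one array other than those of 4 hr. Pfkfb1 and Pfkfb2 were called at no time, although a dimmer probe set of Pfkfb2 was called lower at 12 hr, at −0.89. With the Actb ratio as covariate Pfkfb1 was called higher at 4 hr, at 0.50.

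The 4 pyruvate dehydrogenase kinases, which keep pyruvate from the mitochondria by inactivating the pyruvate dehydrogenase complex, were all called at 12 hr, 2 higher and 2 lower. Of all probe sets 8.94% were called higher and 10% lower at that time, and of the brighter ones 13.9% and 15.9%. The list holds only 4 genes. Pdk4, the kinase known for its induction by fasting and fatty acids in muscle and liver, fell the most of all members. It read 1834 and 1573 at 0 hr, 883 and 1383 at 2 hr, 264 and 363 at 4 hr, 337 and 223 at 12 hr, and 178 and 106 at 24 hr (1378074_at). The 2 hr arrays lay below those of 0 hr, and all arrays from 4 hr on were well below these. Pdk4 fell by 2.46, 2.63, and 3.63 on the log2 scale at 4, 12, and 24 hr (SE 0.31, adjusted p = 0.00079, 0.00071 and 0.00016), a level 12.3-fold lower at 24 hr than at 0 hr, and these calls held under every alternative. At 2 hr it was at −0.62 (adjusted p = 0.22).

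Pdk2 rose by 0.43 at 4 hr and 0.72 at 12 hr (SE 0.10, adjusted p = 0.013 and 0.0014) and stood at −0.13 at 24 hr (adjusted p = 0.43), and its 4 hr call was lost without the first 0 hr or the second 4 hr array and with the Actb ratio as covariate. Pdk1, a known target of hypoxia-inducible factor, rose by 0.96 at 12 hr (SE 0.27, adjusted p = 0.036), and lost the call without any one of the 0 or 12 hr arrays. Its second probe set, almost as bright, was called higher at 12 hr too, at 0.98, and lower at 4 hr, at −0.93, where the one used stood at 0.14. Pdk3 fell by 0.42 at 12 hr (SE 0.10, adjusted p = 0.015), a call lost without either 0 hr array or the first 12 hr array. A dimmer probe set of Pdk3 was called lower at 12 and 24 hr, at −0.54 and −0.77, while the one used stood at −0.29 at 24 hr and was not called there.

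Of the genes of oxygen sensing, Hif1a, which encodes the oxygen-regulated alpha subunit of hypoxia-inducible factor, fell step by step. It read 11014 and 10931 at 0 hr, 9554 and 11432 at 2 hr, 7932 and 8742 at 4 hr, 7266 and 7334 at 12 hr, and 6270 and 6243 at 24 hr (1387076_at). The 2 hr arrays spanned those of 0 hr, and from 4 hr on each time lay below the one before. Hif1a stood at −0.07, −0.40, −0.59, and −0.81 (SE 0.10), called from 4 hr on (adjusted p = 0.024, 0.0048 and 0.001), and the 4 hr call was lost without either 0 hr array or the first 4 hr array. The arrays measure its mRNA, whereas oxygen acts on its protein.

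Egln1 and Egln3 encode prolyl hydroxylases that mark this protein for destruction. Egln1 read 684 and 748 at 0 hr, 760 and 831 at 2 hr, 791 and 905 at 4 hr, 991 and 1104 at 12 hr, and 846 and 726 at 24 hr (1389207_at). Its 12 hr arrays were the highest, and the 24 hr arrays overlapped those of 0 hr. Egln1 rose by 0.55 at 12 hr (SE 0.12, adjusted p = 0.012), a call lost without the first 0 hr or the second 12 hr array. A dimmer probe set of Egln1 was called at no time and stood at 0.08 at 12 hr. Egln3, itself a known target of the factor, read 260 and 289 at 0 hr, 123 and 171 at 2 hr, 148 and 94.6 at 4 hr, 379 and 476 at 12 hr, and 385 and 268 at 24 hr (1368174_at). The 4 early arrays were below both 0 hr arrays, the 12 hr arrays above them, and the 24 hr arrays overlapped them. Egln3 fell by 0.92 at 2 hr (SE 0.26, adjusted p = 0.04) and by 1.21 at 4 hr (adjusted p = 0.0092), and was not called at 12 and 24 hr, at 0.63 and 0.23. Its call at 2 hr was lost without either 0 hr array, the first 2 hr array or either 12 hr array, and that at 4 hr without the second 0 hr array. Both calls of Egln3 were also lost by the analysis of variance of the arrays compared alone. They were lost too with the Actb ratio as covariate, where the log2 fold changes were −0.66 and −1.02.

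The 8 hypoxia response targets split into 3 that rose at both late times, 1 that fell and 4 that were called at no time. At 12 and at 24 hr 37.5% of them were thus called higher and 12.5%, or 1 gene, lower. The shares of all probe sets were 8.94% and 10% at 12 hr and 9.29% and 10.9% at 24 hr. Apln, which encodes the secreted peptide apelin, rose the most of all members. It read 44.3 and 50.1 at 0 hr, 94.9 and 82.8 at 2 hr, 99.5 and 90.9 at 4 hr, 443 and 492 at 12 hr, and 777 and 548 at 24 hr (1389651_at). The early arrays were all above the 0 hr arrays and the late arrays above the early ones, and the 0 to 4 hr values lay near or below the array median. Apln stood at 0.91, 1.01, 3.31, and 3.79 (SE 0.16, adjusted p = 0.0067, 0.0025, 2e-05 and 1.2e-05), a level 13.8-fold higher at 24 hr than at 0 hr, and lost only its 2 hr call, without the first 0 hr array. A second probe set was called higher at 12 and 24 hr, at 1.64 and 1.59. Apelin is known from vascular endothelium, and the summed intensity of the 7 endothelial markers measured lay between 1658 and 2086 at 0 hr, 1845 and 1909 at 2 hr, 1358 and 1537 at 4 hr, 1184 and 1277 at 12 hr, and 1002 and 1098 at 24 hr. The markers did not move as one. Of the 7, 1, 4, 3, and 4 fell at 2, 4, 12, and 24 hr, beside 8.88%, 11.9%, 10%, and 10.9% of all probe sets. Kdr, an endothelial growth factor receptor gene, rose at 12 hr, at 1.21 (SE 0.36). The part of endothelial cells in the level of Apln was not tested.

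Stc1, which encodes the secreted glycoprotein stanniocalcin, rose 6.65-fold at 12 hr. It read 164 and 187 at 0 hr, 364 and 196 at 2 hr, 304 and 181 at 4 hr, 992 and 1363 at 12 hr, and 516 and 471 at 24 hr (1377404_at). The 2 hr arrays lay above those of 0 hr, the 4 hr arrays overlapped them, and the late arrays were higher than all of these, most so at 12 hr. The log2 fold changes were 2.73 at 12 hr (SE 0.31, adjusted p = 0.00064) and 1.49 at 24 hr (adjusted p = 0.011), and the 24 hr call was lost without any one of the 0 or 24 hr arrays. Both further probe sets of Stc1, each dimmer, were called higher at 12 hr as well. Neither was called at 24 hr, at 1.34 and 0.40 (adjusted p = 0.0504 and 0.29), so the 24 hr call of Stc1 rests on the probe set used. Ankrd37, a known hypoxia-induced gene for an ankyrin repeat protein, read 144 and 150 at 0 hr, 82.7 and 146 at 2 hr, 132 and 126 at 4 hr, 340 and 474 at 12 hr, and 620 and 442 at 24 hr (1373685_at). All late arrays lay above all others. Ankrd37 rose by 1.45 at 12 hr and 1.83 at 24 hr (SE 0.27, adjusted p = 0.0059 and 0.0019), and the 12 hr call was lost without the second 12 hr array.

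P4ha2 and P4ha1 encode catalytic subunits of the prolyl hydroxylase of collagen, which stabilizes the collagen helix. P4ha2 read 3166 and 3063 at 0 hr, 2733 and 3848 at 2 hr, 1582 and 2265 at 4 hr, 1434 and 1323 at 12 hr, and 1306 and 1119 at 24 hr (1372610_at). The 2 hr arrays spanned those of 0 hr and all later arrays were lower. P4ha2 fell by 0.72, 1.18, and 1.37 on the log2 scale at 4, 12, and 24 hr (SE 0.20, adjusted p = 0.029, 0.0038 and 0.0018), and its second probe set by 1.20, 1.08, and 1.33, although the 4 hr call of the one used was lost without either 0 hr array, the first 4 hr array or either 12 hr array. P4ha1 was called at no time against 0 hr and stood at 0.59 at 24 hr (SE 0.21, adjusted p = 0.093). The log2 ratio of P4ha1 over P4ha2 was 1.95 higher at 24 hr than at 0 hr. Vegfa, the vascular growth factor gene best known as a hypoxia target, was called at no time, with log2 fold changes between 0.05 and 0.48 (SE 0.22), and a dimmer probe set of it was called higher at 12 hr, at 0.47. Ndrg1, a gene of stress response, lay between −0.33 and 0.37 with a wide error (SE 0.41), and Adm, which encodes the vasodilator peptide adrenomedullin and was the dimmest member, between 0.10 and 0.25 at all times (SE 0.11), neither called.

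Hypoxia-inducible factor is known to bind a short core in DNA, ACGTG or GCGTG. Promoter sequences of RefSeq (build GRCr8), taken as the 250 bases before the gene start, were found for 36 of the 40 members, all but Slc2a3, Pgk1, Ndrg1 and Stc1. At least 1 copy of either core, on either strand, stood in 63.9% of these 36 genes (23 of them) and in 39.6% of the 27457 genes of the table. The median GC content of the member windows was 63.0%, against 52.0% for all genes, so the windows differ in composition as well. A core stood in 4 of the 5 members with a window that rose at both late times and in 6 of the 7 that fell at both, so that members of either direction held it. The windows of 2 genes that rose and 2 that fell are given to show this, 5′ to 3′ along the gene, with each core in capitals. CACGTG reads as a core on either strand and was counted on each.
Ankrd37, which rose (chr16:53001257-53001506, plus strand, 4 cores): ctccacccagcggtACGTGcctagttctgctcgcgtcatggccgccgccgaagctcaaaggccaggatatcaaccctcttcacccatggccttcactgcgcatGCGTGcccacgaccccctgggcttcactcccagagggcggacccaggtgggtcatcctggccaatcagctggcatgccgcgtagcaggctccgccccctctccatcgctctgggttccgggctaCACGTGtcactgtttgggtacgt
Apln, which rose (chrX:132091247-132091496, minus strand, 0 cores): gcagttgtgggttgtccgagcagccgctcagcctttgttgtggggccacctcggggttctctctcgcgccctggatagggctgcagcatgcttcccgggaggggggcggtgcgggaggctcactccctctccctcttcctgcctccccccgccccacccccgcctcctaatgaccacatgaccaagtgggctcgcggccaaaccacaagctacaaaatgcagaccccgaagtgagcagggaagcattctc
P4ha2, which fell (chr10:38743644-38743893, plus strand, 5 cores): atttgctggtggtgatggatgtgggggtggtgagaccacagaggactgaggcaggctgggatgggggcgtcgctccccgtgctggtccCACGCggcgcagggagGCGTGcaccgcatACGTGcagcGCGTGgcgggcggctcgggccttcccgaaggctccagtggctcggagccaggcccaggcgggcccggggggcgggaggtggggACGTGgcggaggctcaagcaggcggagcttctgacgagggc
Pdk4, which fell (chr4:34568330-34568579, minus strand, 0 cores): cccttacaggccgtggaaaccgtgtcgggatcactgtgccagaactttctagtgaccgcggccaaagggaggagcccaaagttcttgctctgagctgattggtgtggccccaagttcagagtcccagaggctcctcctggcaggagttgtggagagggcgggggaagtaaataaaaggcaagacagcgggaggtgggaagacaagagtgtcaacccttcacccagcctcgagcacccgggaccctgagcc
A core in a window describes its letters and is no measure of binding.

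Genes of the same pathways outside the set were counted in the same fit. Their lists too were chosen with earlier results of these data known, so their shares are descriptions. Of 17 other glycolysis and gluconeogenesis genes measured, 0, 0, 0, and 1 rose and 1, 3, 4, and 6 fell at 2, 4, 12, and 24 hr. The falls were 5.88%, 17.6%, 23.5%, and 35.3% of the list, against 8.88%, 11.9%, 10%, and 10.9% of all probe sets. Of all probe sets 8.61%, 11.9%, 8.94%, and 9.29% rose at these times. The lists of 8 or 9 genes that follow are small, so that 1 gene is more than 10% of each and a count of 1 is near the share of all probe sets. The mitochondrial gluconeogenic gene Pck2 fell by 1.57 at 24 hr (SE 0.20), the monocarboxylate carrier Slc16a7 by 1.37 and 1.53 at 12 and 24 hr (SE 0.37), and the glucose carrier Slc2a8 by 0.81 at 24 hr (SE 0.09). Of 9 genes of the pentose phosphate and polyol pathways, Rpia, which encodes ribose phosphate isomerase, rose at all 4 times, at 1.35, 1.78, 1.19, and 0.54 (SE 0.12). The polyol pathway genes Sord, for sorbitol dehydrogenase, and Akr1b1, for aldose reductase, the enzyme linked to sugar cataract in the lens, fell. Sord stood at −0.52, −1.12, −1.76, and −0.64 (SE 0.15) and was called each time, and Akr1b1 at −0.86 and −0.83 at 12 and 24 hr (SE 0.09). In all 1, 1, 1, and 2 of the 9 rose and 3, 4, 3, and 3 fell at 2, 4, 12, and 24 hr.

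Around the pyruvate dehydrogenase complex 2, 2, 3, and 1 of 9 genes rose and 0, 1, 1, and 1 fell at the same times. Beside this list and the next, 8.61%, 11.9%, 8.94%, and 9.29% of all probe sets rose and 8.88%, 11.9%, 10%, and 10.9% fell. Pdha1, its catalytic subunit, rose at 4, 12, and 24 hr, with 1.41 the highest, at 12 hr (SE 0.16), and Pdp1, a phosphatase that opposes the kinases, at 2, 4, and 12 hr, with 1.33 the highest, at 4 hr (SE 0.08). Mpc1, a subunit of the mitochondrial pyruvate carrier, fell by 1.72 and 1.61 at 12 and 24 hr (SE 0.11). Of 8 other factors and regulators of the hypoxia response, 2, 1, 0, and 1 rose and 0, 0, 1, and 1 fell. Siah2, a ubiquitin ligase of the prolyl hydroxylases, rose by 1.72, 1.51, and 0.89 at 2, 4, and 24 hr (SE 0.18), and Cited2, which competes with the factor for its coactivator, by 1.33 at 2 hr (SE 0.15). Arnt2, a partner of the alpha subunits, fell by 1.28 and 1.09 at 12 and 24 hr (SE 0.10).

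Of 24 other known hypoxia response targets, 8 rose and 2 fell at 12 hr (33.3% and 8.33%, against 8.94% and 10% of all probe sets). At 2, 4, and 24 hr 16.7%, 12.5%, and 16.7% rose, against 8.61%, 11.9%, and 9.29% of all probe sets, and 8.33%, 8.33%, and 12.5% fell, against 8.88%, 11.9%, and 10.9%. The largest changes were early ones. Errfi1, a feedback inhibitor of EGF receptor signalling, rose by 3.04 at 2 hr (SE 0.15) and by 0.62 and 0.52 at 4 and 12 hr. Hmox1, which encodes heme oxygenase, rose by 1.94, 2.17, and 1.34 at 2, 4, and 12 hr (SE 0.19), and the clock-related repressor gene Bhlhe41 fell by 2.29 at 4 hr (SE 0.57). Both Hmox1 and Errfi1 are known to respond to signals other than oxygen as well, and the cause of their rises was not tested.

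Differences between neighbouring times compare arrays whose names are close in number. At 4 against 2 hr Pfkp and Pdk2 were higher and Pfkm, Pfkfb3, and Pdk4 lower, 2 and 3 of the 38 members (5.26% and 7.89%, against 2.24% and 1.5% of all probe sets). The largest were those of Pdk4, at −1.84, and Pfkfb3, at −1.82 and thus 3.53-fold lower at 4 hr than at 2 hr, and the calls became 0 in a fit of the 2 and 4 hr arrays alone, 2 without the first 4 hr array and 3 without the second 2 hr array. At 24 against 12 hr no member was called higher by limma (2.22% of all probe sets were) and 2 were lower, Slc2a3 and Pdk2 (5.26%, against 2.12%). Pdk2 was at −0.85 (SE 0.10, adjusted p = 0.0038), a call lost without the second 12 hr array. At an unadjusted p under 0.05, 2 members were higher and 7 lower at 24 hr than at 12 hr, and by the analysis of variance 3 were higher.

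Set as phases, the late arrays (12 and 24 hr) differed from the early ones (2 and 4 hr) in 30 of the 38 members, 19 higher and 11 lower (50.0% and 28.9%, against 19.9% and 19.3% of all probe sets, and 26.8% and 28.9% of the brighter ones). The higher ones included 4 of the 5 lower glycolysis genes tested, Tpi1, Pgk1, Pgam1, and Eno2, none of which was called against 0 hr. Their differences lay between 0.39 and 0.55. Slc16a3 and P4ha1, also not called against 0 hr, were higher by 1.33 and 0.87. The phases coincide with the array numbers, so that phase and array series cannot be told apart. Of the 30 calls 21 were kept under every alternative. With each array left out in turn the count lay between 25 and 29.

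**Figure D4:**
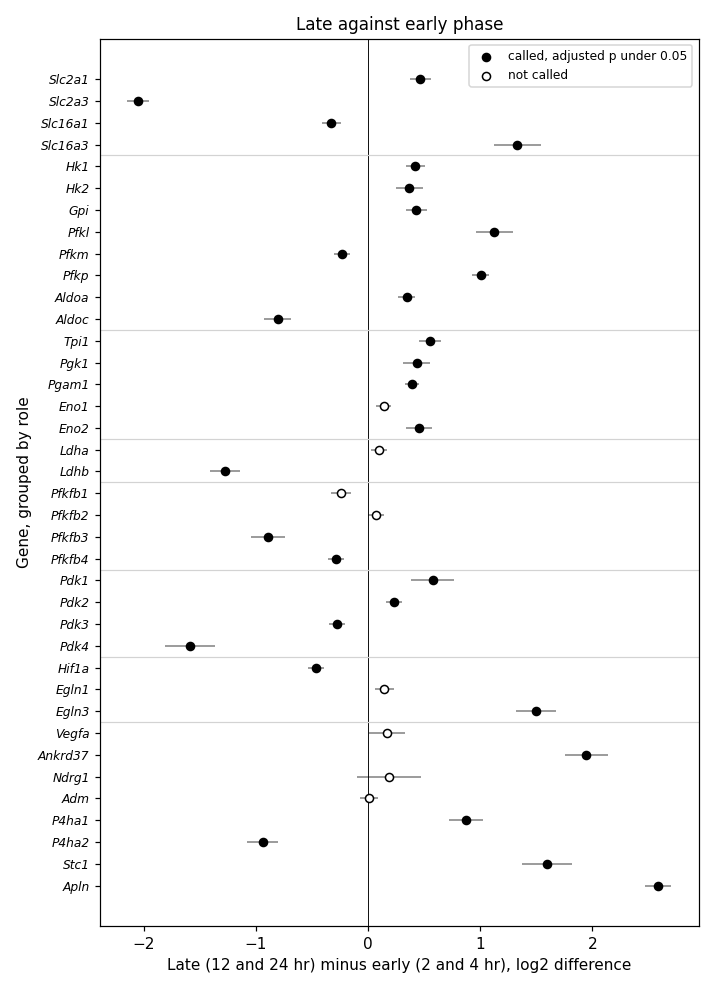
Log2 difference between the late (12 and 24 hr) and the early (2 and 4 hr) arrays for each of the 38 members, grouped by role. Circles are limma estimates, lines run 1 SE to each side, and filled circles were called. Apln lies highest, at 2.59, and Slc2a3 lowest, at −2.05.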

How the data were processed

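Gene expression was measured on 10 Affymetrix rat arrays, 2 per time point, from lens explants. Per the labels, the authors normalized the arrays by robust multichip average (RMA) and deposited intensity values on a linear scale, and the version is not given in the sources used here. The array named in the methods is not the one to which the probe sets belong, and the labels name another RNA kit than the methods do. No normalization was added to the deposited intensities beyond taking log2. The table holds 31099 probe sets, of which 57 array controls were left out, so that 31042 were tested. Of these 20826 carry 1 gene symbol, 436 several and 9780 none. No column was without a sample (0 of the 10).

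The 5 group means were fitted with limma 3.58.1 (lmFit) in R 4.3.3, leaving 5 residual degrees of freedom, and variances were moderated with eBayes, for which the prior had 3.69 degrees of freedom and an SD of 0.116. Calls were made where the p adjusted by Benjamini-Hochberg was under 0.05. Where an omission left 1 array at a time, its spread was taken from the other groups. The number of arrays limits the precision, and RMA draws dim values together, which narrows their fold changes. Members with several probe sets numbered 18, with 24 further probe sets. In 96 comparisons of a further probe set with the one used, at 4 times, both were called the same way in 18, in opposite ways in 2 (Pfkm), the one used alone in 22, the other alone in 5 and neither in 49.

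Values on every array are given for members called at 2 or more times with a log2 fold change of at least 1 in size at one of them, and for Hif1a, Egln1 and Gapdh. Up to 3 called genes with the largest change are named from each other list. The members and lists were chosen with earlier results of these data known. Alternatives were unadjusted p, an unadjusted analysis of variance and a limma fit, each of only the groups compared, and another variance prior. The methods name an analysis of variance for the time course, so the one run here need not match it. Further alternatives were centring by median or by quantiles, a filter on dim probe sets, and a fold change of at least 1.25. Others were an average over the probe sets of a gene, array weights, the Actb control ratio as covariate, and a replicate block. The last were each array left out in turn, fits without the early or the late arrays and, chosen after seeing the data, the array controls left in. The fit was tested on simulated data, and the outcome is not given here. Promoter windows were searched and figures drawn with Python 3.11.15, pandas 2.3.3 and matplotlib 3.10.9.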

Additional observations from a re-analysis of the deposited data

Results flagged for a closer look

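These differences were singled out because the change against 0 hr differed between 2 times or phases in the limma fit itself, at an adjusted p under 0.05. With 2 arrays per time point no single array could be tested as an outlier. Between 4 and 2 hr the log2 difference was −0.47 for Pfkm, 0.67 for Pfkp, −1.82 for Pfkfb3, 0.73 for Pdk2 and −1.84 for Pdk4. Between 24 and 12 hr it was −1.18 for Slc2a3 and −0.85 for Pdk2.

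Between the late and early arrays the log2 differences of glycolysis and lactate dehydrogenase genes that were higher late were Pfkl 1.12, Pfkp 1.00, Tpi1 0.55, Eno2 0.45, Pgk1 0.43, Gpi 0.43, Hk1 0.42, Pgam1 0.39, Hk2 0.37 and Aldoa 0.34. Those of such genes that were lower late were Ldhb −1.28, Aldoc −0.81 and Pfkm −0.23. Among the carriers, kinases, bifunctional enzymes, and genes of oxygen response, the higher ones were Apln 2.59, Ankrd37 1.95, Stc1 1.60, Egln3 1.50, Slc16a3 1.33, P4ha1 0.87, Pdk1 0.57, Slc2a1 0.46 and Pdk2 0.23. The lower ones were Slc2a3 −2.05, Pdk4 −1.59, P4ha2 −0.94, Pfkfb3 −0.89, Hif1a −0.47, Slc16a1 −0.33, Pfkfb4 −0.29 and Pdk3 −0.28. Of these 30 calls 21 were kept under every alternative. Those kept least often were Hk2, Pfkm, Pdk1, and Pdk2, in 11, 14, 15, and 16 of 23 alternatives. Phase and array series cannot be told apart in these differences. The 5S ribosomal RNA control read 183 to 209 on the 2 and 4 hr arrays, against 112 to 154 on the others, and its part was not tested.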

How the results depend on the processing

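No called gene turned its direction under an alternative, with 1 exception: the late minus early difference of Slc16a1, −0.33, was 0.032 as the mean of its probe sets, since the dimmer one ran the other way. Over all members, comparisons and alternatives, 207 values lost a call, 153 gained one and 5978 kept their side of the threshold.

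At 2 hr the 7 members called became 4 by the unadjusted analysis of variance of the 2 groups alone. They became 4 in a limma fit of the same 2 groups and 3 without the 12 and 24 hr arrays. At 24 hr the 13 became 21 at unadjusted p, 20 with array weights and 20 without the 2 and 4 hr arrays. For 4 against 2 hr the 5 became 12 at unadjusted p, 0 in a fit of the 2 groups alone and 2 with array weights. For 24 against 12 hr the 2 became 9 at unadjusted p, 8 by the analysis of variance, 6 with array weights and 7 without the 2 and 4 hr arrays. The causes were not tested. With 1 array left out, counts ran from 1 to 7 at 2 hr, 7 to 14 at 4 hr, 12 to 22 at 12 hr, 10 to 15 at 24 hr, 2 to 6 for 4 against 2 hr, 1 to 4 for 24 against 12 hr (1 without the second 12 hr array, 4 without either 4 hr array) and 25 to 29 for late against early. Quantile normalization, median centring, the dim-probe filter and the array controls left every count within 1.5 times. With the Actb ratio as covariate 11 calls were lost and 13 gained over the 7 comparisons. Those lost against 0 hr were Pfkm, Pfkfb3 (0.42), Pfkfb4 and Egln3 at 2 hr, Pdk2 (0.37) and Egln3 at 4 hr, and Pfkl (0.61) and Aldoa (0.21) at 24 hr.

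Over all probe sets, replicate deviations correlated at 0.33 between 2 and 4 hr and between −0.15 and 0.00 for the other pairs of times. Arrays of equal replicate number thus went together at 2 and 4 hr only. With a replicate block the counts were 5, 13, 22, and 13 at 2, 4, 12, and 24 hr, 5 for 4 against 2 hr, 2 for 24 against 12 hr and 30 for late against early. The block lost the 2 hr calls of Pfkm and Egln3, gained that of Slc16a3 at 4 hr and changed no other call of a member.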

Other observations

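The members varied together between the replicate arrays. Replicate 1 read lower than replicate 2 in 28, 30, 26, and 27 of the 38 members at 0, 2, 4, and 12 hr, but in 4 of 38 at 24 hr, where it read higher in 34. Of the probe sets above the median brightness, 53.1%, 51.1%, 46.0%, 52.2%, and 46.1% read lower in replicate 1 at 0, 2, 4, 12, and 24 hr. The median log2 difference of the members, replicate 1 minus replicate 2, was −0.11, −0.15, −0.19, −0.12, and 0.21 in that order of times. The SD of this difference over the members was largest at 2 hr, 0.37, and smallest at 0 hr, 0.12. Members share their arrays and are not independent.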
